A study of Mus musculus with 9 samples.

Results

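The retinoid receptors are the nuclear receptors through which retinoic acid, the active form of vitamin A, changes transcription. The 6 genes described here are Rara, Rarb and Rarg, which encode the retinoic acid receptors, and Rxra, Rxrb and Rxrg, which encode the retinoid X receptors. They were chosen by gene symbol, and each was measured by 1 probe set, the group of probes that reports a gene on the array. They are 6 of 22061 genes with a named probe set.

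Right ventricles of male mice were profiled on Affymetrix whole-transcript arrays, 9 arrays for 9 samples, in 3 groups of 3. The first group was labelled Lrat-/- and received a vitamin A deficient diet, the second was labelled Lrat-/- and received a sufficient diet, and the third was wild type on the sufficient diet. The sufficient diet was the deficient one with 250000 U/kg of retinol palmitate added, and all mice were killed after 50 days. Lrat encodes lecithin-retinol acyltransferase, which esterifies retinol for storage, so mice without it lack the main tissue store of vitamin A. Neither the age, the strain nor the construction of the Lrat allele is given in the sources used here. Wild-type mice on the deficient diet are not analysed here, so diet was compared only among mice labelled Lrat-/-. The labels do not say that the samples came from separate animals, so p-values cover only the spread among the samples at hand, part of which may be technical, and precision is limited by having few arrays.

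The retinoic acid receptors bind all-trans retinoic acid and act as heterodimers with a retinoid X receptor, which is also the partner of the thyroid hormone, vitamin D, peroxisome proliferator-activated and liver X receptors. Without ligand the pair recruits corepressors such as NCoR and SMRT, and with ligand it recruits coactivators with histone acetyltransferase activity. In the mouse embryo Rxra is needed for growth of the ventricular wall, and Rxrg is a receptor best known from heart, skeletal muscle and brain. Rarb is both a receptor and a classical target: its promoter carries a retinoic acid response element, and retinoic acid raises its transcription in many cell types.

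That element is shown first, because the diets change the supply of the ligand to which it is known to respond. Whether Rarb responded to the ligand in these samples was not tested. Promoter windows from RefSeq (build GRCm38.p6), from 250 bases before to 50 bases after a start, were found for all 6 genes, 13 windows in total. They were searched on both strands for the consensus half-site AGGTCA and for its variants with sequence AGTTCA, with sequence GGGTCA or with sequence GGTTCA, repeated in the same direction with 1 to 5 bases between them. Of the 13 windows only that of Rarb held such a repeat, with a spacing of 5 bases, at chr14:16575513-16575529 on the minus strand, 37 to 53 bases before the start. In the stretches below the capitals mark the half-sites. The stretch for Rarb covers chr14:16575477-16575589, minus strand. Cyp26a1, which encodes a retinoic acid hydroxylase and is another textbook retinoic acid target, is shown for comparison because it is the one gene of the 30 listed targets whose window held a repeat of that spacing. Its stretch covers chr19:37697716-37697807, plus strand, and its repeat lies in the reverse direction, 16 to 32 bases before the start.
Rarb: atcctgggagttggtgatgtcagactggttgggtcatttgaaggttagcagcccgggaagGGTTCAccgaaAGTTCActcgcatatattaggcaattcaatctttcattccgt
Cyp26a1: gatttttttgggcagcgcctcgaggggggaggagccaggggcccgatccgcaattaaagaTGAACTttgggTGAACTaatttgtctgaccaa

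A repeat with this spacing was present in 32 of 32851 windows of the same length (0.0974%). Spacings of 1, 2, 3 and 4 bases were present in 0.222%, 0.268%, 0.0396% and 0.0822% of windows. A single half-site was present in 43.7% of all windows and in 7 of the 13 receptor windows, so its presence there says little. Elements outside these windows were not searched, and a match is a description of the letters only.

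The tissue and the labels were checked before the receptors. All 10 cardiomyocyte and all 8 endothelial markers lay above the 95th percentile of the 5222 negative control probe sets on every array, and so did 5 of 8 fibroblast, 4 of 8 macrophage and 4 of 8 smooth muscle and pericyte markers. The same held for 1 of 5 atrial and 1 of 8 skeletal muscle markers, and for 0 of the 6 mesothelial, 8 adipocyte and 7 neural markers. The median log2 signal over all genes was 7.16 to 7.21 per array, and r between arrays was 0.987 to 0.998. The arrays numbered 3 in every group stood apart from the others on the first principal component, which held 28.4% of the variance. The Lrat probe set gave a stronger, not a weaker, signal where the label was Lrat-/-: 7.58, 7.69 and 7.81 on the deficient diet and 7.88, 7.64 and 8.09 on the sufficient diet, against 6.35, 6.24 and 6.43 in wild type. The mean difference was 1.44, with a two-sided p of 0.0238 by exact permutation over 84 splits, which can give none smaller. Between 68.4% and 93.4% of the negative controls lay below the Lrat probe set. It was therefore under their 95th percentile on every array, near the background. The position of this probe set relative to the deleted part of the gene is not known here, so it does not check the labels, and every direction by genotype below rests on them.

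No receptor gene passed the test in any comparison. The diet comparison set deficient against sufficient arrays, both labelled Lrat-/-. The genotype comparison set sufficient arrays labelled Lrat-/- against wild type. The combined comparison set deficient arrays labelled Lrat-/- against wild type, and it shares its arrays with the other two. Each difference is the first group minus the second. Over the 18 tests, 6 genes in 3 comparisons, the lowest adjusted p was 0.837 (limma, Benjamini-Hochberg over all genes). Among all 22061 genes, 0% were called at an adjusted p under 0.05 in the diet comparison, 0.0363% in the genotype comparison and 0.068% in the combined comparison. In the diet comparison limma called 0 genes after adjustment, 290 genes had an unadjusted p under 0.05 (1.31%), and 2 genes were called with array weights. A result of 0 receptors among 6 is therefore what most sets of genes would give at these rates. The 95% confidence intervals give the more useful statement. Over the 18 tests they ran from -0.54 to 0.45 on the log2 scale. A fall in signal to less than 0.686 times the other group, or a rise to more than 1.37 times, lay outside all of them. These are bounds on array signal rather than on RNA, and Rara and Rarg were measured near the background.

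**Figure D1:**
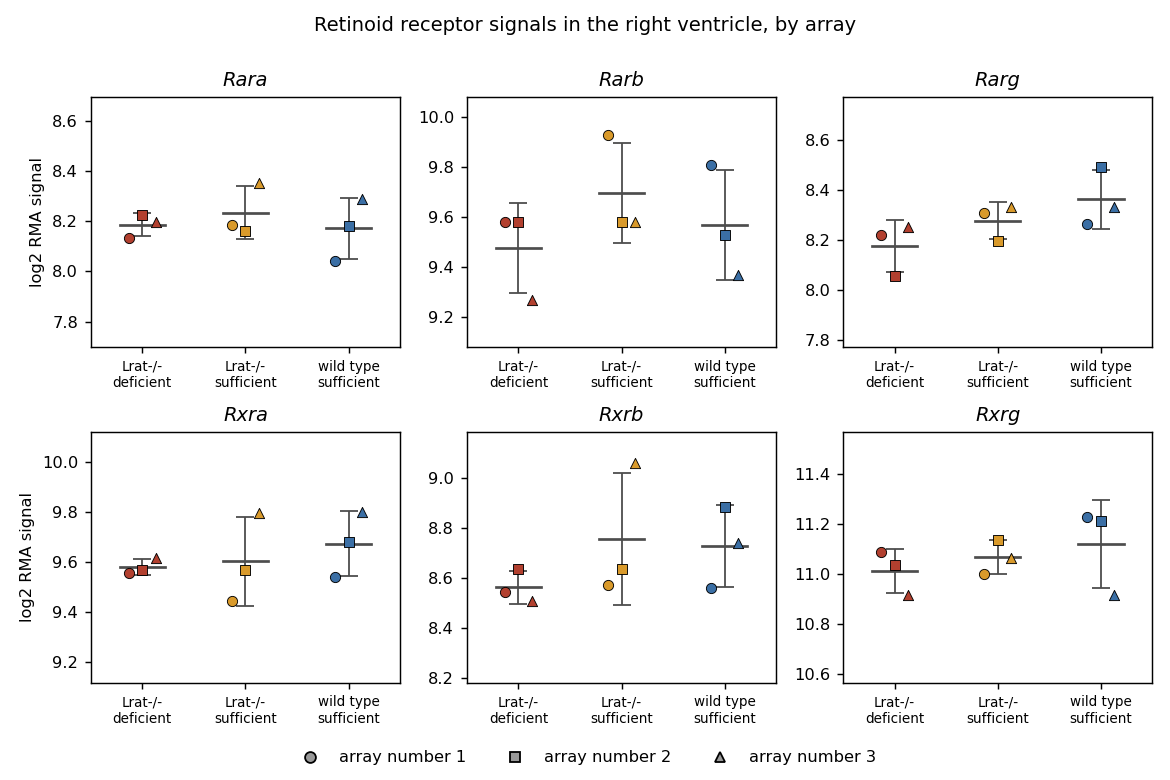
Log2 RMA signal (y axis) of the 6 receptor genes on the 9 arrays by group (x axis), with the mean as a bar and the SD as whiskers (n = 3); marker shapes give the array number. The groups overlap for every gene except Rarg, whose deficient arrays (8.06 to 8.25) lie just below the wild-type arrays (8.26 to 8.49).

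Rara encodes the receptor found in most tissues. Its log2 signal was 8.13, 8.22 and 8.20 on the deficient arrays labelled Lrat-/-, 8.19, 8.16 and 8.35 on the sufficient arrays labelled Lrat-/-, and 8.04, 8.18 and 8.29 on the wild-type arrays. The 3 groups overlapped, and the deficient arrays lay within the range of the wild type. The diet difference was -0.05 (95% confidence interval -0.24 to 0.15, adjusted p = 1), the genotype difference 0.06 (-0.13 to 0.26, adjusted p = 0.952) and the combined difference 0.01 (-0.18 to 0.21, adjusted p = 0.998). Between 93.2% and 95.4% of the negative controls lay below it, so Rara was measured near the upper edge of the background.

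Rarb, the receptor with the response element shown above, had the largest diet difference of the 6 with all arrays in the fit. Its signal was 9.58, 9.58 and 9.27 on the deficient arrays, 9.93, 9.58 and 9.58 on the sufficient arrays labelled Lrat-/-, and 9.81, 9.53 and 9.37 in wild type. The lowest value was a deficient array and the highest a sufficient one, but the other values interleaved. The diet difference was -0.22 (SE 0.14, interval -0.54 to 0.10, unadjusted p = 0.161, adjusted p = 1), a ratio of 0.859, and 95.6% of all genes had a smaller one in size. By array number it was -0.35, 0.00 and -0.31, so 2 of 3 pairs were lower and 1 was equal. It was -0.10 without sufficient array 1 and -0.12 without deficient array 3, and in both cases Rxrb had the larger difference. In the genotype comparison Rarb was 0.13 higher (interval -0.20 to 0.45, adjusted p = 0.950) and higher in 3 of 3 pairs, with values of 0.013 to 0.25 when single arrays were left out, and in the combined comparison the difference was -0.09 (-0.42 to 0.23, adjusted p = 0.989). The order of the group means was therefore deficient (9.48 ± 0.18), wild type (9.57 ± 0.22) and Lrat-/- sufficient (9.70 ± 0.20; SD, n = 3 each), and no neighbours in it differed beyond their spread. With the array number as a block in the model the unadjusted p of the diet difference was 0.0340, and its adjusted p was 1, with a range of 0.878 to 1 over all other settings.

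The value 9.5798 was identical on 4 of the 9 arrays for Rarb, deficient 1 and 2 and sufficient 2 and 3 labelled Lrat-/-. Identical values come often in these deposited signals: 57.0% of genes had the same value on at least 2 arrays, 32.9% on at least 3 and 15.5% on at least 4. Rxrb shared 8.6357 between deficient array 2 and sufficient array 2, and the other 4 receptors had 9 distinct values each.

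Rarg encodes the receptor best known from skin and cartilage. Its signal was 8.22, 8.06 and 8.25 on the deficient arrays, 8.31, 8.20 and 8.33 on the sufficient arrays labelled Lrat-/-, and 8.26, 8.49 and 8.33 in wild type. The deficient and wild-type arrays did not overlap, by a gap of about 0.01, whereas the sufficient arrays overlapped both. The combined difference was -0.19 (SE 0.09, interval -0.38 to 0.01, unadjusted p = 0.0614, adjusted p = 0.837), a ratio of 0.879 and the lowest p of the 18. It ran from -0.24 to -0.12 when single arrays were left out, the smallest without wild-type array 2. Over all genes, 8.15% had groups that did not overlap in that comparison, and 4.88% had the deficient arrays below. The diet difference was -0.10 (-0.30 to 0.10, adjusted p = 1), lower in 3 of 3 pairs by 0.09, 0.14 and 0.08, but -0.042 without deficient array 2. The genotype difference was -0.08 (-0.28 to 0.11, adjusted p = 0.948). The authors' deposited table gives a combined ratio of 0.827 for Rarg with p = 0.0307, and a false discovery rate of 0.815 over its group test. Between 93.3% and 96.6% of the negative controls lay below Rarg, so it too was near the upper edge of the background.

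Rxra encodes the retinoid X receptor of most tissues, heart muscle included. Its signal was 9.56, 9.57 and 9.62 on the deficient arrays, 9.44, 9.57 and 9.79 on the sufficient arrays labelled Lrat-/-, and 9.54, 9.68 and 9.80 in wild type. The deficient arrays lay close together, inside the range of the sufficient arrays. The differences were -0.02 for diet (-0.25 to 0.21, adjusted p = 1), -0.07 for genotype (-0.30 to 0.16, adjusted p = 0.953) and -0.09 for the combined comparison (-0.32 to 0.14, adjusted p = 0.980). Rxra is the receptor with the smallest diet difference of the 6: 19.9% of all genes had a smaller one.

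Rxrb encodes the second widely expressed retinoid X receptor. Its signal was 8.54, 8.64 and 8.51 on the deficient arrays, 8.57, 8.64 and 9.06 on the sufficient arrays labelled Lrat-/-, and 8.56, 8.88 and 8.74 in wild type. Sufficient array 3 stood above the rest, and the other sufficient arrays overlapped the deficient ones. The diet difference was -0.19 (-0.49 to 0.11, unadjusted p = 0.183, adjusted p = 1), and by number it was -0.03, 0.00 and -0.55, so that 1 pair carried it. Without sufficient array 3 it was -0.040. The genotype difference was 0.03 (-0.27 to 0.33, adjusted p = 0.989) and the combined difference -0.16 (-0.47 to 0.14, adjusted p = 0.964).

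Rxrg encodes the retinoid X receptor associated with striated muscle, and its probe set was far above the background: at least 98.9% of the negative controls lay below it on every array. Its signal was 11.09, 11.04 and 10.92 on the deficient arrays, 11.00, 11.14 and 11.07 on the sufficient arrays labelled Lrat-/-, and 11.23, 11.21 and 10.92 in wild type. The group means ran from 11.01 ± 0.09 on the deficient diet and 11.07 ± 0.07 on the sufficient diet to 11.12 ± 0.17 in wild type (SD, n = 3 each), a range smaller than the spread within the wild-type group. The differences were -0.05 for diet (-0.27 to 0.17, adjusted p = 1), -0.05 for genotype (-0.27 to 0.17, adjusted p = 0.965) and -0.11 for the combined comparison (-0.32 to 0.11, adjusted p = 0.970). Single arrays moved the combined difference of Rxrg by over 1.5 times: it was -0.21 without wild-type array 3 (unadjusted p = 0.0312, adjusted p = 0.603) and -0.051 without wild-type array 1.

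**Figure D2:**
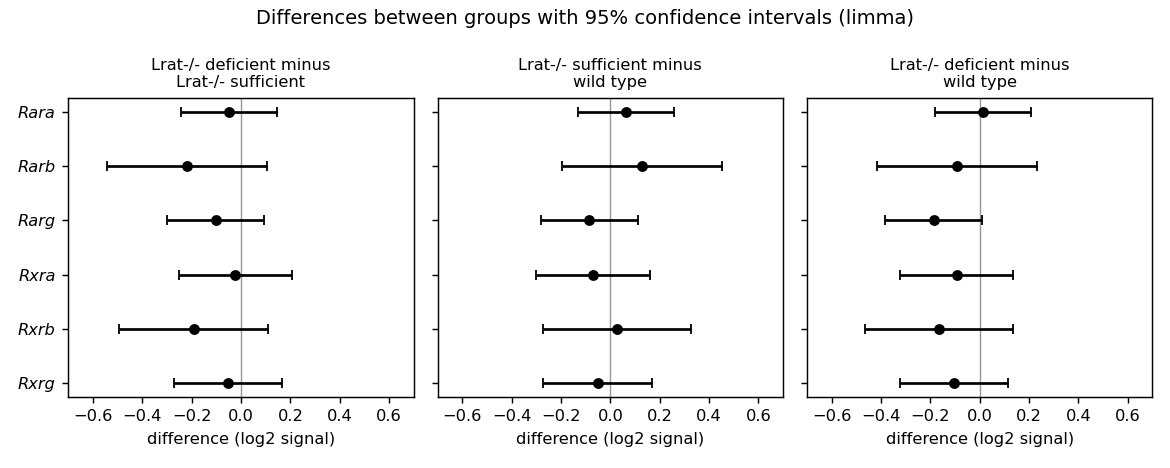
Log2 difference (x axis) of each receptor gene (y axis) in the diet, genotype and combined comparisons, with limma's 95% confidence interval as a bar (3 arrays per group). All 18 intervals include 0, and they reach from -0.54 (Rarb, diet) to 0.45 (Rarb, genotype).

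All 6 receptors were lower in the deficient arrays than in the sufficient arrays labelled Lrat-/-, by 0.02 to 0.22, with a median difference of -0.08, although without sufficient array 3 Rara and Rxra were higher by 0.013 and 0.073. Of all genes, 54.8% were lower in that comparison, with a median of -0.01. In the genotype comparison 3 of 6 were lower (49% of all genes), and in the combined comparison 5 of 6 (54.3% of all genes). The receptors are measured on the same arrays and share their deviations, so these counts are not 6 independent observations. A moderated F test for any difference among the 3 groups gave adjusted p = 0.999 for each of the 6, in a fit that called 0.0408% of all genes. In whole tissue, fewer cells of a type and less RNA per cell cannot be told apart, and markers of several cell types had differences beside those of the receptors, though no gene of the marker lists passed the test in any comparison. Of the 8 fibroblast markers 6 were higher in the diet comparison (median 0.09), opposite to the receptors. All 8 were lower in the genotype comparison (median -0.21), with list means of 9.46 to 9.67 on the deficient arrays, 9.48 to 9.55 on the sufficient arrays labelled Lrat-/- and 9.68 to 9.79 in wild type. The mesothelial list ran from 6.75 to 7.20, from 7.22 to 7.28 and from 7.36 to 8.23 in the same order, with all 6 genes lower in every comparison and none above the background percentile on all arrays. Of the 8 macrophage markers 7 were lower in the genotype and in the combined comparison (medians -0.13 and -0.19), with list means of 8.59 to 8.62, 8.46 to 8.68 and 8.60 to 8.98. Of the 8 endothelial markers 7 were higher in the diet comparison (median 0.15), opposite to the receptors, and 7 lower in the genotype comparison (median -0.07), with list means of 10.20 to 10.40, 10.13 to 10.23 and 10.28 to 10.29. The smooth muscle and pericyte list was highest on the sufficient arrays labelled Lrat-/-, at 9.34 to 9.47. It was 9.21 to 9.28 on the deficient arrays and 9.14 to 9.25 in wild type. Of its 8 genes 4 were lower and 4 higher in the diet comparison (median -0.03). In the genotype comparison 6 were higher and 2 lower (median 0.11). Its widest differences were those of Acta2, -1.10 for diet and 1.07 for genotype. The part of these cell types in the receptor values was not tested.

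The array number went with more of the receptors' variation than the group did. For Rarb, 23.1% of the variation over the 9 arrays lay between groups and 63.8% between numbers, and for Rxra 12.6% and 67.0%. Rara had 10.1% between groups and 60.8% between numbers, Rxrg 16.3% and 45.1%, and Rxrb 24.3% and 27.4%. Rarg was the exception, with 46.6% between groups and 4.76% between numbers. The medians over all genes were 19.5% and 33.2%. On the arrays numbered 3, Rarb was lower than the mean of numbers 1 and 2 in each group, by 0.31 on the deficient arrays, 0.17 on the sufficient arrays labelled Lrat-/- and 0.30 in wild type. Rxra was higher there by 0.05, 0.29 and 0.19 in the same order, and Rara by 0.02, 0.18 and 0.17. The mean shift of number 3 was -0.26 for Rarb and 0.18 for Rxra, larger in size than the median over all genes of 0.105 and of the order of the largest group differences above. What the number stands for is not given in the sources used here.

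**Figure D3:**
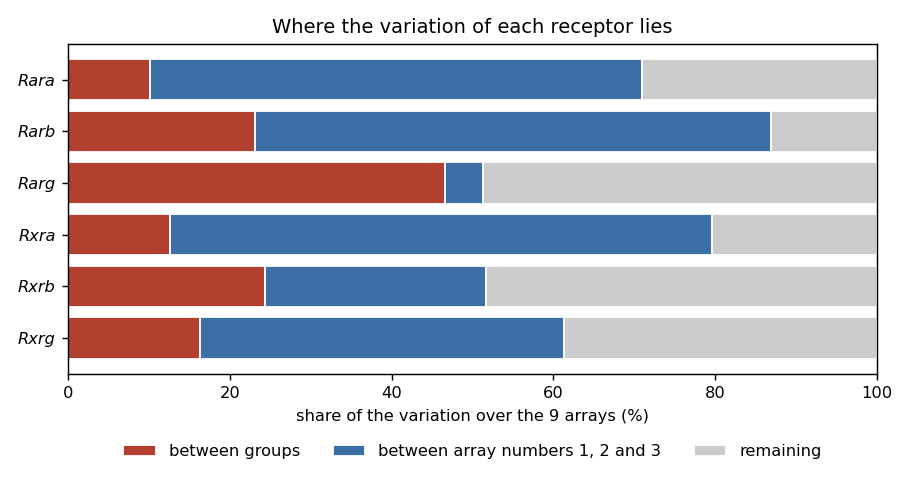
Share of each receptor's variation over the 9 arrays (x axis, percent) that lies between groups, between array numbers 1, 2 and 3, or in neither, for each receptor gene (y axis). Between numbers lay 67.0% for Rxra, 63.8% for Rarb and 60.8% for Rara, against 4.76% for Rarg.

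Some of the receptors varied together across the arrays and others ran opposite, as a description over 9 arrays that share their numbers and groups. Rxra and Rxrb had r = 0.760, Rara and Rxra 0.732, and Rara and Rxrb 0.700, whereas Rarb ran opposite to Rxra (r = -0.630) and Rara opposite to Rxrg (-0.558). The genes most like each receptor over the 9 arrays were Mir494, Kazald1 and Rims2 for Rara (r = 0.974, 0.964 and 0.959), Plekha8, Aida and Pcnp for Rarb (0.991, 0.983 and 0.977), and Igsf8, Mok and Creb3l4 for Rarg (0.951, 0.946 and 0.939). They were Agbl4, Znrf4 and Rgs20 for Rxra (0.975, 0.970 and 0.959), Lemd2, Tcf19 and Tbx3 for Rxrb (0.974, 0.955 and 0.952), and Car13, Ecd and Mrps2 for Rxrg (0.987, 0.952 and 0.942). These are the highest correlations among the 22061 genes and are given without a test.

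Other genes of the pathway were read by role. Of the 13 nuclear receptors that pair with a retinoid X receptor, none passed the test in any comparison: 6 were higher and 7 lower in the diet comparison (median -0.02), 6 and 7 in the genotype comparison (-0.02), and 2 and 11 in the combined comparison (median -0.05). Thrb, a thyroid hormone receptor, averaged 8.68 and 8.63 on the deficient and sufficient arrays labelled Lrat-/- and 8.38 in wild type (combined difference 0.30, adjusted p = 0.610). Ppara, the fatty acid sensor of heart muscle, averaged 10.23 and 10.25 in the same arrays and 9.99 in wild type (combined difference 0.24, adjusted p = 0.721). Nr4a1, an immediate early orphan receptor, had the widest difference of the list, -1.14 in the combined comparison (adjusted p = 0.706), with means of 7.96 ± 0.20 on the deficient arrays and 9.10 ± 0.71 in wild type (SD, n = 3 each). The Nr4a1 difference ran from -1.51 to -0.80 when single arrays were left out. On the deficient arrays its signal (7.80 to 8.18) lay below the 95th percentile of the negative controls (8.33 to 8.46), near the background.

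Among 29 other nuclear receptors none passed. In the diet, genotype and combined comparisons 10, 12 and 11 were higher and 19, 17 and 18 lower (medians -0.04, -0.01 and -0.04). Nr4a3, an immediate early receptor like Nr4a1, had a combined difference of -0.80 (adjusted p = 0.422), and -1.07 with an adjusted p of 0.0429 without wild-type array 1, in a range that reached 0.914 over other settings. Its probe set was on average 1.20 above the negative control mean, near the background. Nr0b2, a corepressing orphan receptor that binds no DNA itself, averaged 9.04 and 9.10 in the deficient and sufficient arrays labelled Lrat-/- and 8.62 in wild type (combined difference 0.42, adjusted p = 0.570, and 0.27 without wild-type array 1).

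None of 12 corepressor and 13 coactivator genes passed. Ncor1, which encodes the corepressor NCoR, differed by 0.13 in the combined comparison (adjusted p = 0.899), and Lcor, a ligand-dependent corepressor, by 0.26 (adjusted p = 0.788). Ppargc1a, a coactivator of mitochondrial genes, averaged 11.71 and 11.75 in the deficient and sufficient arrays labelled Lrat-/- and 11.48 in wild type (combined difference 0.23, adjusted p = 0.781, and 0.14 without wild-type array 2). The median difference of the corepressors was 0.01 for diet, 0.01 for genotype and 0.02 for the combined comparison, and that of the coactivators 0.01, 0.02 and 0.05. Of the proteins that carry retinoic acid in the cell, Crabp1 averaged 6.88, 6.82 and 7.01, Crabp2 6.61, 6.65 and 6.63, and Fabp5 8.58, 8.33 and 8.46 on the deficient, sufficient and wild-type arrays, and none passed. Crabp1 and Crabp2 were near the background, on average 1.26 and 0.99 above the negative control mean.

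**Figure D4:**
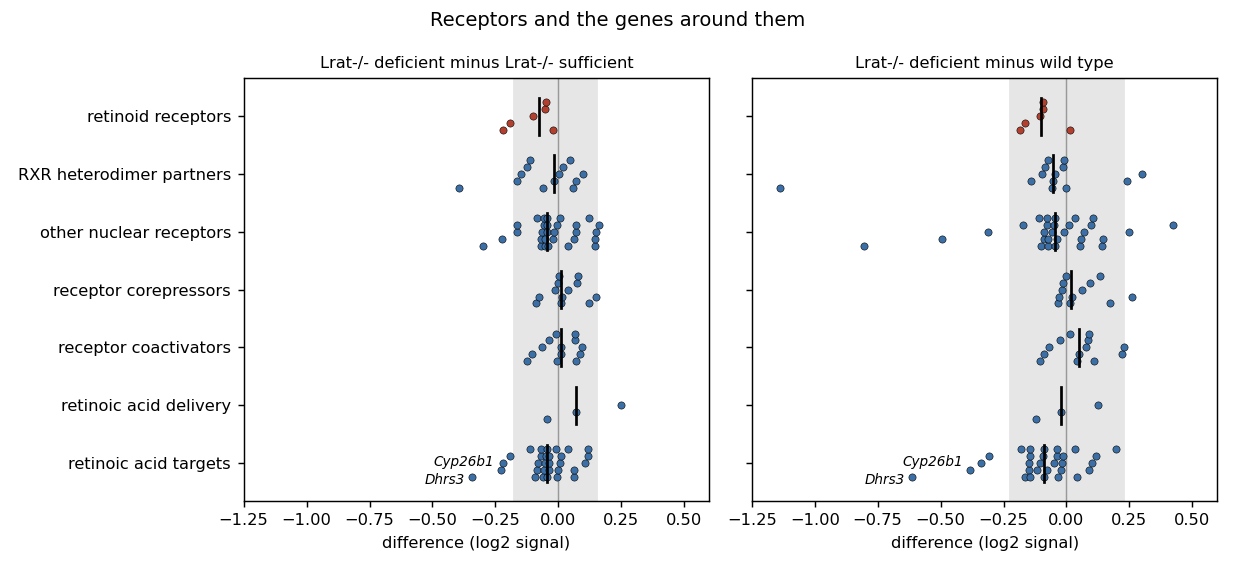
Log2 difference (x axis) of every measured gene of 7 lists (y axis, black bars at the medians) in the diet and combined comparisons; the grey band runs from the 5th to the 95th percentile of all genes. The receptors lie between -0.22 and -0.02 in the diet comparison, and Dhrs3 lies farthest below 0 among the listed retinoic acid targets in both panels.

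The 30 listed target genes of retinoic acid include some near the background, such as Cyp26a1 and Crabp2. Whether the 30 report on the receptors in this tissue was not tested. None passed: 8 were higher and 22 lower in the diet comparison (median -0.04), 11 and 19 in the genotype comparison (-0.03), and 6 and 24 in the combined comparison (-0.09). Over all genes the medians were -0.01, 0.00 and -0.01. Groups that did not overlap were found for 4, 4 and 5 of the 30 in the 3 comparisons, against 5.22%, 7.7% and 8.15% of all genes.

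Dhrs3 encodes a retinaldehyde reductase that retinoic acid induces and that limits retinoic acid formation. Its signal was 10.18, 9.99 and 10.16 on the deficient arrays, 10.43, 10.43 and 10.50 on the sufficient arrays labelled Lrat-/-, and 10.65, 10.89 and 10.63 in wild type. The 3 groups formed 3 separate ranges, lowest on the deficient diet and highest in wild type. The share of all genes with such ranges was not counted. Dhrs3 and Cyp26b1 were named for the lowest unadjusted F test p among the listed targets, a rule that favours groups lying apart. The diet difference was -0.34 (SE 0.09, unadjusted p = 0.00379, adjusted p = 1), the genotype difference -0.27 (unadjusted p = 0.0142, adjusted p = 0.698) and the combined difference -0.61 (unadjusted p = 6.38e-05, adjusted p = 0.0754). The combined adjusted p was 0.0412 with array weights, 0.0998 with the array number as a block, and between 0.0412 and 0.413 over all other settings.

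Cyp26b1 encodes a cytochrome P450 that degrades retinoic acid. Its signal was 7.11, 7.06 and 7.08 on the deficient arrays, 7.28, 7.28 and 7.36 on the sufficient arrays labelled Lrat-/-, and 7.48, 7.35 and 7.55 in wild type. Again the deficient arrays lay below all others, while the lowest wild-type array lay just under the highest sufficient one. The diet difference was -0.23 (unadjusted p = 0.0111, adjusted p = 1), the genotype difference -0.16 (adjusted p = 0.887) and the combined difference -0.38 (unadjusted p = 0.000434, adjusted p = 0.224). The probe set was on average 1.65 above the negative control mean, which is low on this array.

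**Figure D5:**
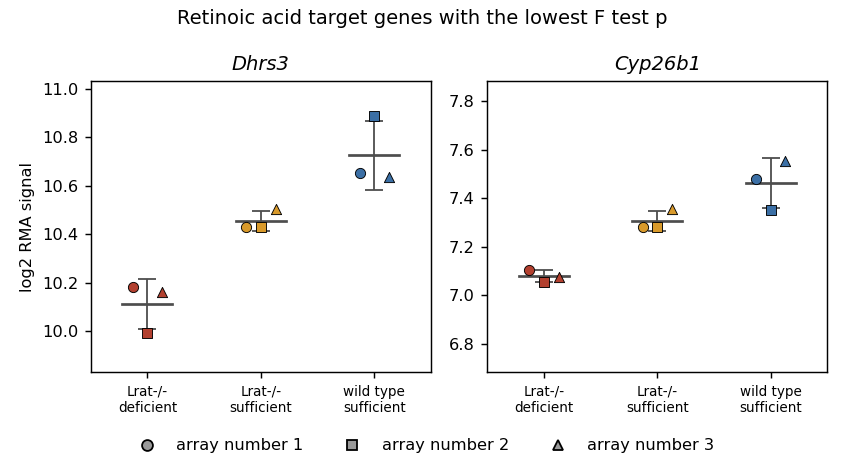
Log2 RMA signal (y axis) of Dhrs3 and Cyp26b1 on the 9 arrays by group (x axis), with the mean as a bar and the SD as whiskers (n = 3); marker shapes give the array number. The deficient arrays lie lowest for both genes, at 9.99 to 10.18 for Dhrs3 and 7.06 to 7.11 for Cyp26b1.

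Rarres2, which encodes the adipokine chemerin and was named for its induction by a retinoid, averaged 8.48 and 8.49 in the deficient and sufficient arrays labelled Lrat-/- and 8.82 in wild type (genotype difference -0.34, adjusted p = 0.792; combined difference -0.34, adjusted p = 0.738). Without wild-type array 2 both were -0.22. Cyp26a1, whose repeat is printed above beside that of Rarb, gave 5.74, 5.70 and 5.28 on the deficient arrays, 5.70, 5.70 and 5.56 on the sufficient arrays labelled Lrat-/-, and 5.68, 5.77 and 5.70 in wild type. Its mean lay 0.01 from the negative control mean, so no level could be read for it. Of the 11 measured genes with a repeat of that spacing in a window, Rarb among them, 5 were lower in the diet comparison (median 0.01), 7 in the genotype comparison (median -0.04) and 5 in the combined comparison (median 0.00), and 0 were called in each.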

How the data were processed

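The authors deposited log2 signals, and the submitters' processing notes list the mm8 build, R 3.1.2 and RMA, a method that corrects background, normalizes by quantiles and summarises by probe set. The authors' deposited table of comparisons holds ratios of group means, p-values and false discovery rates, and per the file headers scan date was a factor in its analysis of variance. A further 9 signal columns, whose names match no sample, were not used. Of 35556 probe sets, 6559 were controls and 25465 had 1 symbol. Gene symbols were brought up to date with RefSeq names of GRCm38.p6 (22115 matched by accession, 1815 by symbol, 625 by synonym, 910 kept). For each of 22061 genes the probe set with the highest mean was kept.

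limma 3.58.1 under R 4.3.3 was fitted to all 9 arrays (group means, default empirical Bayes, residual df 6, prior df 3.34), with Benjamini-Hochberg adjustment over all genes and calls at an adjusted p under 0.05. The fit was tested on simulated data. The Lrat test used scipy 1.17.1. The members and the 16 lists (174 genes, 173 measured) were chosen with earlier results of these data known. Named genes are the 6 receptors, Lrat, the 3 genes per list with the lowest unadjusted F test p, and the 3 most correlated genes per receptor; some picks of the rule are summarised or not reported here, and Cyp26a1 was named for its promoter.

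After group means were removed, same-number arrays correlated across genes with r = 0.138 to 0.391 in all 9 pairs. For other pairs r was -0.365 to 0.223. These ranges overlap, and no label states a pairing. The numbers were used for differences by pair and as a block in other settings, whereas the main fit and its p-values are unpaired. In the diet comparison 533 genes had an unadjusted limma p under 0.05 with the array number as a block, against 290 without it.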

Additional observations from a re-analysis of the deposited data

How the results depend on the processing

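None of the receptors passed the threshold under any of the other settings, and their lowest adjusted p was 0.515 (Rarg, combined comparison, without wild-type array 1). Outside the settings that left out arrays, 160 of 162 receptor values kept their direction, but most of them could not change. The groups are balanced and each receptor has 1 probe set, so only median centring and array weights could move a receptor's difference. The count therefore says little about robustness. With array weights the diet difference of Rxra was 0.013 and the genotype difference of Rxrb -0.076. Without replicate 3 the diet difference was 0.0064 for Rara and 0.055 for Rxra, and the genotype difference of Rxrb was -0.12. When 1 array at a time, or all numbered 3, was left out, Rara ran from -0.084 to 0.013 (diet), -0.0017 to 0.12 (genotype) and -0.049 to 0.073 (combined), Rarb from -0.19 to 0.028 (combined), Rxra from -0.10 to 0.073 (diet) and -0.17 to 0.0075 (genotype), Rxrb from -0.12 to 0.12 (genotype) and Rxrg from -0.15 to 0.0031 (genotype), each turning sign in some of them. With 1 array left out, Rarg ran from -0.13 to -0.020 (genotype), Rxra from -0.16 to -0.030 (combined), Rxrb from -0.25 to -0.087 (combined) and Rxrg from -0.090 to -0.0051 (diet) without turning sign. With a replicate block, 0, 10 and 20 genes were called in the diet, genotype and combined comparisons and 13 by the F test, against 0, 8, 15 and 9 without it, and no call on a receptor changed. Called genes in the genotype comparison numbered 2 with only the 2 groups compared, 15 with all probe sets and 7 to 27 with 1 array left out (27 without wild-type array 1, 17 without wild-type array 3), and 2 without replicate 3. In the combined comparison they numbered 9 with only the 2 groups, 32 with array weights and 7 to 32 with 1 array left out (32 without wild-type array 3, 7 without deficient array 1 or 2), and 3 without replicate 3. By the F test they numbered 16 with all probe sets, 26 with array weights and 8 to 12 with 1 array left out, 2 without replicate 3, and in the diet comparison 2 with array weights and 0 whenever arrays were left out. The Lrat difference was 1.38 to 1.48 (exact permutation p = 0.0357 to 0.0714, the higher with a wild-type array left out, where it is the smallest possible). With array weights Dhrs3 passed in the combined comparison (-0.60, adjusted p = 0.0412). Beyond arithmetic from fewer arrays or more probe sets, the cause of these shifts was not tested. Signal limits what can be said of Lrat, Rara, Rarg, Cyp26b1, Nr4a3, Crabp1 and Crabp2, which lay near the background. The same holds for Nr4a1 on the deficient arrays.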
